A study of Homo sapiens with 12 samples.

Results

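NRF2 was knocked down with 2 siRNAs, numbered 28 and 30, in 3 NRF2-activated lung cancer lines. By the mean of both, PTGR1 and NQO1 showed the 2 largest falls among 10 detoxification genes in each line. CBR4, PTGR2 and EPHX2 did not pass the test in any line. With siRNA 30 alone PIR fell more than NQO1 in A549 (log2 change -2.18 against -2.16). In H460 NQO2 then fell more than NQO1 (-1.63 against -1.56). The genes examined were the quinone reductases NQO1 and NQO2, the carbonyl reductases CBR1, CBR3 and CBR4, the prostaglandin reductases PTGR1 and PTGR2, the epoxide hydrolases EPHX1 and EPHX2, and PIR. They were chosen by name as enzymes that reduce quinones or carbonyls or open epoxides, and pirin, a quercetin-cleaving nuclear protein, was listed with them. They are 10 of the 57815 genes in each expression file, and all 10 were measured well enough to be tested in each line. NRF2 is a transcription factor that binds, as a heterodimer with small MAF proteins, to antioxidant response elements, and KEAP1 normally marks it for degradation. NQO1 is a textbook NRF2 target: it reduces quinones with 2 electrons at once and so avoids the reactive semiquinone. Carbonyl reductases and prostaglandin reductases use NADPH to reduce ketones and unsaturated carbonyl compounds, and epoxide hydrolases add water to epoxides.

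RNA was sequenced from 3 human non-small cell lung cancer lines that the labels give as KEAP1 mutation positive, so every group, controls included, carried a KEAP1 mutation. A549 and H2023 are lung adenocarcinoma lines and H460 is a large cell carcinoma line. A549 was kept in high glucose DMEM and the others in low glucose DMEM, each with 10% serum, and cells were collected 48 h after siRNA transfection. Each line had 2 libraries with control siRNA and 2 with NRF2 siRNA, 1 with siRNA 28 and 1 with siRNA 30, which makes 12 libraries in 6 groups. The controls were biological duplicates, whereas the spread within a knockdown group included the difference between the siRNAs. A549 libraries were made after ribosomal RNA removal, the others after polyA selection, and all were strand-specific, so library protocol and medium cannot be told apart from the line when A549 is set against the others. No group had wild-type KEAP1. In these bulk samples, fewer cells of a kind and less RNA per cell cannot be told apart.

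The values are FPKM, fragment numbers that the authors scaled to transcript length and library size. Counts were not used here, so the depth behind each value is not known in reads. Relative depth within a line, from the steps between low values, was 92.5% to 107% of the first control library. NFE2L2, the gene of NRF2, was at 38.2 and 30.9 FPKM in the A549 controls and 5.31 and 7.84 FPKM in the knockdowns, and both knockdown libraries were below both controls in H2023 and H460 too. The keratins KRT8 and KRT18 were at 298 FPKM or above in each library, and of 7 markers of blood, vessel and fibroblast cells PTPRC, CD3E, VWF and COL1A2 were at most 0.47 FPKM. The other markers of that list were higher. CD68 was at 14.04 to 57.7 FPKM over all libraries, and COL3A1 and PDGFRB were at 3.43 to 8.56 and 0.63 to 3.97 FPKM in H460 and at most 0.595 and 0.573 FPKM in A549 and H2023. None of the 3 passed the test in any line. EPCAM was low in H460, at 1.09 and 0.222 FPKM in the controls. Mitochondrially encoded transcripts took 8.56% and 13.1% of the FPKM sum in H460 controls and 20.8% and 26.0% in H460 knockdowns. Leaving them out moved the median H460 log2 fold change of all genes by 0.20. Without them 4, 5 and 3 of the 10 genes examined here were lower in A549, H2023 and H460, and 7 on average. Of all genes 77, 84, 580 and 1120 were lower in the same order. The H2023 genes were not all the same, since NQO2 no longer passed and EPHX1 did (adjusted p = 0.0641 and 0.0409 in limma). EPHX2 passed as higher on average (log2 fold change 0.41, adjusted p = 0.0317 in limma).

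The summed FPKM of the 10 genes was lower with NRF2 siRNA in each line. The sums were 2077 and 1941 FPKM in A549 controls against 426 and 518 FPKM with siRNA 28 and 30. They were 2725 and 2315 against 521 and 438 FPKM in H2023, and 2151 and 2240.4 against 759 and 864 FPKM in H460. The mean sum was thus 4.25-fold lower with NRF2 siRNA in A549, 5.25-fold lower in H2023 and 2.71-fold lower in H460, and the groups did not overlap. NQO1 alone made up 70.2% ± 0.862 of this sum in A549 controls, 38.4% ± 0.720 in H2023 controls and 46.5% ± 1.42 in H460 controls (SD, n = 2 each). With NRF2 siRNA its share was 57.4% ± 4.48, 22.5% ± 0.630 and 33.2% ± 9.65 in the same lines.

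**Figure D1:**
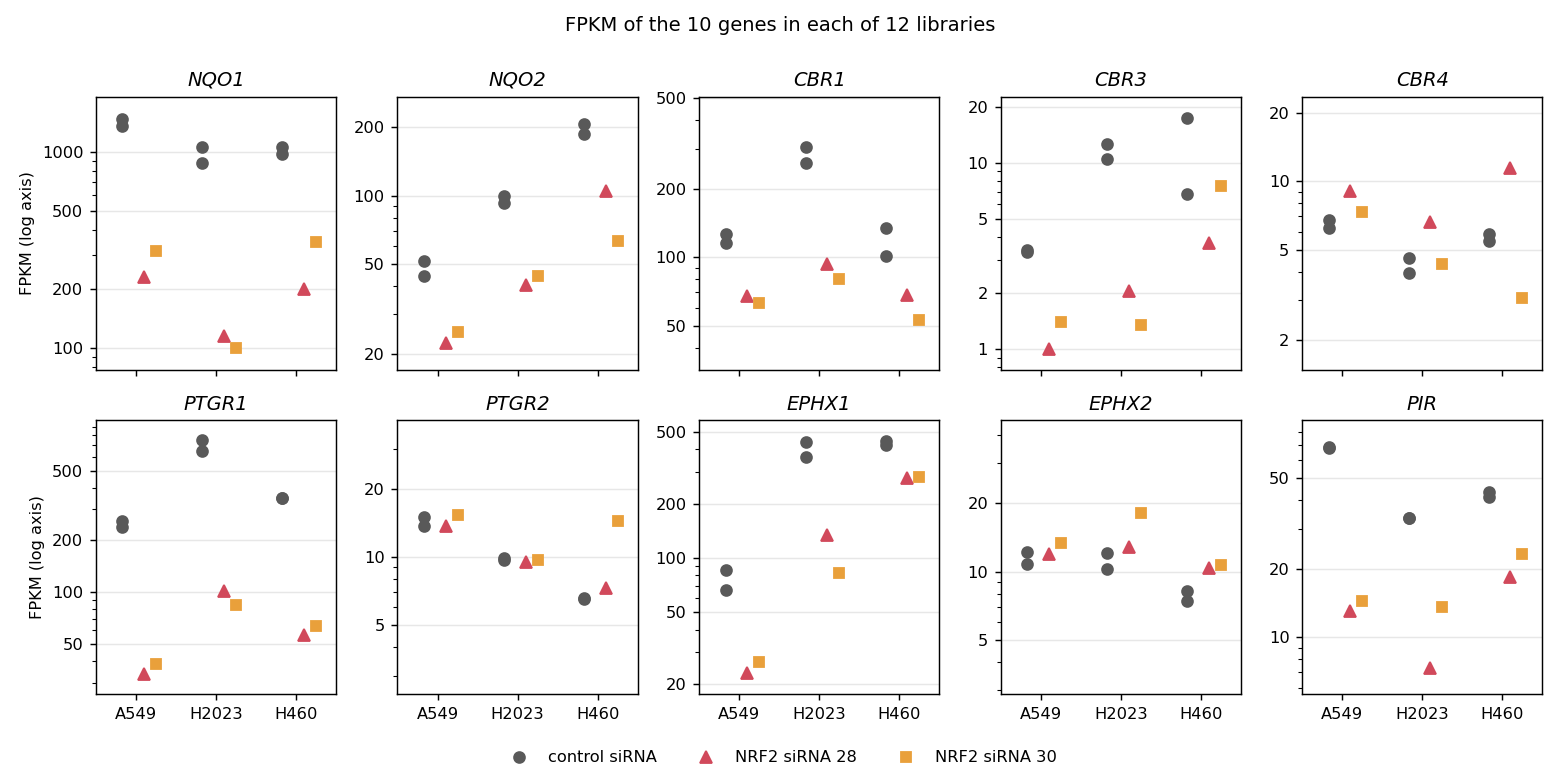
FPKM of the 10 genes on log axes, 1 panel per gene, in each of the 12 libraries (grey circles, control siRNA; red triangles, NRF2 siRNA 28; orange squares, NRF2 siRNA 30). NQO1, NQO2, CBR1, PTGR1, EPHX1 and PIR have both knockdown libraries below both controls in all 3 lines, and CBR3 in A549 and H2023. The same holds by a narrow margin for PTGR2 in H2023.

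The per-line comparison asked which of these transcripts depend on NRF2 in each line. Genes were tested with limma on log2(FPKM + 1) against the spread of the 4 libraries of the line, with Benjamini-Hochberg adjustment over all genes tested and a threshold of 0.05. In A549 4 of the 10 genes passed as lower, against 0.554% of all genes tested. In H2023 5 of the 10 did, against 0.583%, and in H460 4 of the 10 did, against 6.86%. The H460 background depended on the scaling, with 922 genes lower and 957 higher as deposited, 730 and 1195 after scaling by upper quartile, and 580 and 1426 without mitochondrial transcripts. None of the 10 passed as higher, against 0.122%, 0.327% and 7.12% of all genes. The 10 genes were chosen with earlier results of these data known, and NQO1 is a known NRF2 target. Their counts beside these shares are thus no independent evidence. PTGR1 and NQO1 passed in all 3 lines, NQO2 and PIR in 2, and CBR1, CBR3 and EPHX1 in 1. Both knockdown libraries lay below both controls for 7 of the 10 genes in A549, 8 in H2023 and 6 in H460, and this held for 20.5%, 22% and 31.6% of all genes tested. Across the 10 genes the median change was -0.99 on the log2 scale in A549, -1.67 in H2023 and -0.93 in H460, beside medians of 0.02, 0.02 and -0.01 over the whole tables.

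With 2 residual degrees of freedom per line, these calls moved with single libraries. Without the first control library the count was 2 in A549 and 0 in H2023 and H460, and without the second control library it was 4, 2 and 0. Of all genes 24, 0 and 0 passed as lower in A549, H2023 and H460 without the first control library, and 38, 11 and 4 without the second, where all libraries together gave 77, 82 and 922. Without siRNA 28 the counts of the 10 genes were 4, 7 and 5, against 193, 801 and 1748 of all genes. Without siRNA 30 they were 5, 7 and 4, against 140, 648 and 1268. In each of these fits 1 group had a single library, assumed to vary like the other group. The spread thus came from the 2 siRNA libraries where a control was left out and from the 2 controls where an siRNA was, and the same holds for each such call by line given below. With no filter on low values 0 of the 10 genes and 0 of all genes passed in any line, and the fold changes were the same.

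Averaged over the lines in 1 fit of all 12 libraries, 7 of the 10 genes fell and 0 rose, where 14.5% of all genes fell and 15.2% rose. The average log2 fold change was -2.73 ± 0.09 for PTGR1, -2.50 ± 0.15 for NQO1, -1.63 ± 0.14 for PIR, -1.38 ± 0.22 for CBR3, -1.38 ± 0.13 for EPHX1, -1.18 ± 0.11 for CBR1 and -1.14 ± 0.13 for NQO2 (SE). Their adjusted p in limma ranged from 6.81e-08 for PTGR1 to 0.00174 for CBR3. These 7 genes passed whichever library was left out. CBR4, PTGR2 and EPHX2 had average log2 fold changes of 0.22 ± 0.24, 0.19 ± 0.14 and 0.31 ± 0.11 (SE, adjusted p = 0.524, 0.341 and 0.0588 in limma).

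**Figure D2:**
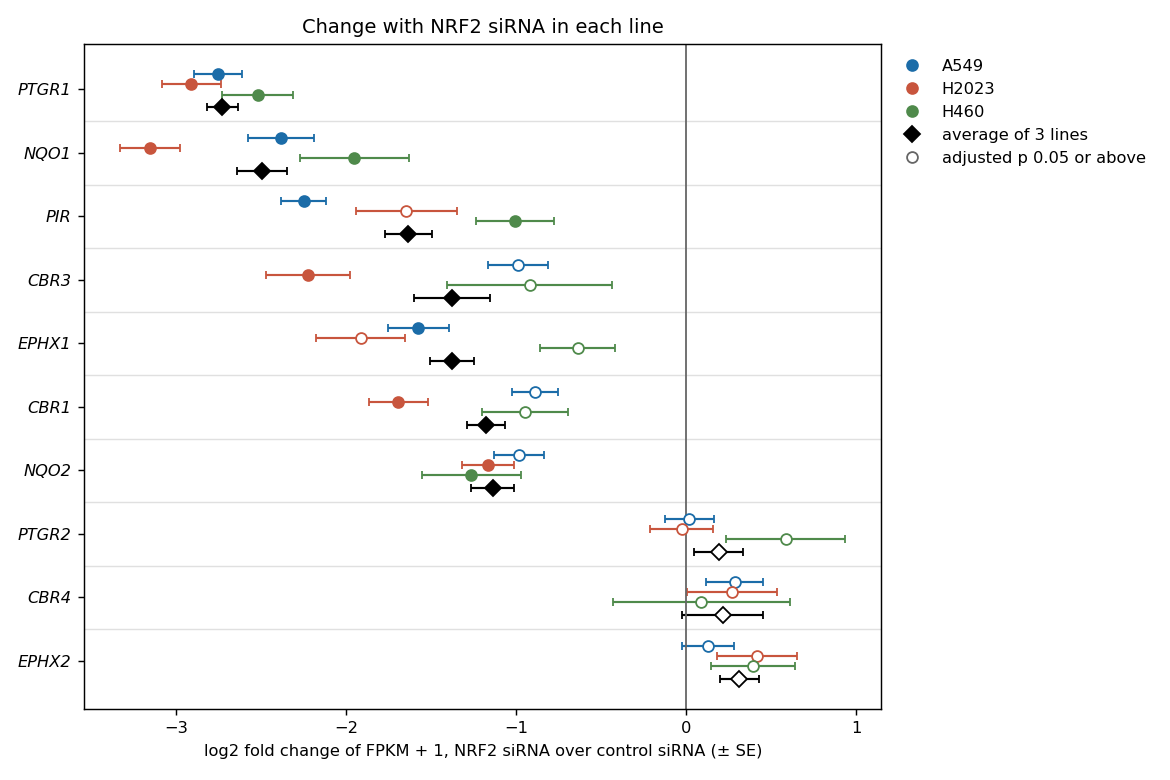
Log2 fold change of FPKM + 1 with NRF2 siRNA for each gene (rows, ordered by the average), per line (circles) and averaged over the 3 lines (black diamonds), with bars of 1 SE. Filled symbols have an adjusted p under 0.05, and the 7 upper genes lie below 0 in each line, from -3.15 for NQO1 in H2023 to -0.64 for EPHX1 in H460.

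The sequence before the start of each gene was searched for the antioxidant response element, since the comparison lowers the factor that binds it. The core was taken as TGACNNNGC and a stricter form as TGACTCAGC, which is 1 case of the core, on both strands from 1000 bases before to 200 after the start of the canonical GENCODE transcript on GRCh37. That start can lie inside the outer bounds of the gene, and was base 69760463 for NQO1, 15511456 for PIR, 37442322 for CBR1 and 169931406 for CBR4. The 8 of the 10 genes with an entry in the RefSeq promoter table were searched, and CBR3 and EPHX2 have none. The stricter form was in 2 of the 8 windows, those of NQO1 and PIR, and in 1.45% of 19869 windows of protein-coding genes. The core was in 5 of the 8, those of NQO1, CBR1, CBR4, PTGR1 and PIR, and in 38.1% of all windows. Sites are shown because NQO1 and PIR hold the stricter form, and CBR1 and CBR4 set a gene that fell on average beside a relative that did not pass. Capitals mark the match, and each site is written on the strand of its gene.
NQO1, 455 bases before the start: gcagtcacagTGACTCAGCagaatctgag
PIR, 27 bases after the start, match on the opposite strand: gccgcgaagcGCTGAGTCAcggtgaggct
CBR1, 159 bases before the start, match on the opposite strand: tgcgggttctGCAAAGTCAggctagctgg
CBR1, 522 bases before the start, match on the opposite strand: ggaaaatctgGCTAAGTCAgtagctttgt
CBR4, 253 bases before the start: ccgactgataTGACCCAGCggggacagag
The NQO1 site is at chr16:69760900-69760928, the PIR site at chrX:15511412-15511440, the CBR1 sites at chr21:37442153-37442181 and chr21:37441790-37441818, and the CBR4 site at chr4:169931641-169931669. Of the 6 searched genes that fell on average, 4 held the core, as did 1 of the 2 searched genes that did not pass. The shorter windows of the RefSeq table ran from 250 bases before to 50 after its own starts on GRCh38.p14. In them the core was in CBR1, EPHX1 and PIR, thus in 3 of these 6 genes and 0 of the other 2. It was in 13.3% of all 35116 windows, a share per window, whereas a gene counted if any of its windows matched. A match in these letters is not a measured binding site.

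NQO1 had the highest FPKM of the 10 genes in each control library and fell in each line. It encodes NAD(P)H quinone dehydrogenase 1 and lies on chr16:69740899-69760571 (GRCh37, minus strand, ENSG00000181019.8). In A549 it was at 1471 and 1352 FPKM with control siRNA, 231 FPKM with NRF2 siRNA 28 and 314 FPKM with siRNA 30. In H2023 the values were 1059.6 and 876 FPKM with control siRNA and 115 and 101 FPKM with siRNA 28 and 30. In H460 they were 979.5 and 1065 FPKM and 200.4 and 346 FPKM. The groups were far apart in each line, and in H460 more NQO1 remained with siRNA 30 than with siRNA 28. The knockdown mean was 19.3% of the control mean for A549, 11.1% for H2023 and 26.7% for H460. On the log2 scale the A549, H2023 and H460 changes were -2.38 ± 0.20, -3.15 ± 0.18 and -1.95 ± 0.32 (SE, adjusted p = 0.009499, 0.00713 and 0.0215 in limma). Without the first control library the adjusted p in limma was 0.0539 for A549, 0.0551 for H2023 and 0.168 for H460, and without the second it was 0.142 in H460, with fold changes from -3.02 to -1.89.

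NQO2, the paralog that works with dihydronicotinamide riboside in place of NAD(P)H, also fell but by less. It lies on chr6:2988221-3019989 (GRCh37, plus strand, ENSG00000124588.15). It was at 51.6 and 44.3 FPKM in A549 controls and 22.4 and 25.01 FPKM with siRNA 28 and 30. In H2023 it was at 99.8 and 92.5 FPKM against 40.4 and 44.1 FPKM. In H460 it was at 207 and 187 FPKM against 105 and 63.03 FPKM. No control library overlapped a knockdown library, and the knockdown means were 49.5%, 43.9% and 42.7% of control. Log2 fold changes for A549, H2023 and H460 were -0.98 ± 0.15, -1.17 ± 0.15 and -1.26 ± 0.29 (SE, adjusted p = 0.0796, 0.04998 and 0.0392 in limma). The H2023 call sat at the threshold and was lost with a pseudocount of 0.1, with no trend in the prior variance, without mitochondrial transcripts (adjusted p = 0.0641), and without either control library. Without siRNA 30 the A549 value passed (adjusted p = 0.0457 in limma), and without the first or second control library the H460 value did not (adjusted p = 0.246 and 0.179).

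CBR1 and CBR3 fell on average, and CBR4 did not pass. CBR1 reduces a wide range of carbonyls, among them quinones, prostaglandins and the anthracycline daunorubicin, and CBR3 is its near neighbour with a narrower substrate range. Both are on the plus strand of chromosome 21 on GRCh37, CBR1 at chr21:37442239-37445464 (ENSG00000159228.8) and CBR3 at chr21:37507377-37518860 (ENSG00000159231.5), with 61.9 kb between them. CBR4, a subunit of a mitochondrial ketoacyl reductase, is at chr4:169784921-169931426 (ENSG00000145439.7, minus strand). CBR1 and CBR3 are close in sequence, so reads may be shared between them, and their separate values carry that uncertainty. Genes on the opposite strand overlap several of the 10, such as SETD4 at CBR1, PALLD at CBR4 and TMEM63A at EPHX1, and whether reads were assigned by strand is not given in the sources used here.

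CBR1 was at 127 and 115 FPKM in A549 controls and 67.4 and 62.6 FPKM with siRNA 28 and 30. In H2023 it was at 306 and 259 FPKM against 93.4 and 79.9 FPKM. In H460 the values were 101 and 135 FPKM against 68.4 and 52.9 FPKM. The knockdown libraries lay below the controls in each line, at 53.6%, 30.7% and 51.3% of control by their means. The log2 fold change passed in H2023, at -1.69 ± 0.17 (SE, adjusted p = 0.0298 in limma), and was -0.89 ± 0.13 in A549 and -0.95 ± 0.25 in H460 (SE, adjusted p = 0.0796 and 0.0549). Without the first or second control library the H2023 value did not pass (adjusted p = 0.234 and 0.153 in limma), and without siRNA 28 the H460 value did (adjusted p = 0.0203). The H2023 call was also lost with no trend in the prior variance (adjusted p = 0.0545), and the A549 value passed with upper-quartile scaling (adjusted p = 0.0394).

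CBR3 was scarce, at 3.41 and 3.31 FPKM in A549 controls and 1.005 and 1.399 FPKM with siRNA 28 and 30. In H2023 it was at 12.6 and 10.5 FPKM against 2.05 and 1.35 FPKM. In H460 the controls differed more from each other, at 6.79 and 17.4 FPKM, and the knockdowns were at 3.72 and 7.47 FPKM. Groups were separate in A549 and H2023 and overlapped in H460. The H2023 log2 fold change of -2.22 ± 0.25 passed (SE, adjusted p = 0.0336 in limma), and that in A549 of -0.99 ± 0.18 and in H460 of -0.92 ± 0.49 did not (SE, adjusted p = 0.117 and 0.2396). The H460 value was -1.54 without the first control library and -0.30 without the second. At such levels the addition of 1 FPKM shrinks the change, and the knockdown mean was 14.7% of the control mean in H2023. Without the first or second control library the H2023 call was lost (adjusted p = 0.285 and 0.195 in limma).

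CBR4 was at 6.72 and 6.24 FPKM in A549 controls against 9.02 and 7.29 FPKM with siRNA 28 and 30, at 4.59 and 3.95 against 6.59 and 4.2997 FPKM in H2023, and at 5.85 and 5.46 against 11.4 and 3.05 FPKM in H460. In H460 the siRNA 28 library was the highest of the 4 and the siRNA 30 library the lowest. The A549, H2023 and H460 log2 fold changes were 0.29 ± 0.17, 0.27 ± 0.26 and 0.09 ± 0.52 (SE, adjusted p = 0.531, 0.657 and 0.924 in limma). The H460 value became -0.72 without siRNA 28, and the average over lines became -0.05. Without the H460 siRNA 30 library the average was 0.48 and passed as higher (adjusted p = 0.0203 in limma).

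PTGR1 fell in each line, to between 13.2% and 17.2% of control, and PTGR2 did not pass in any. PTGR1 reduces the double bond of 15-oxo-prostaglandins and of reactive alkenals, and oxidises leukotriene B4. It is at chr9:114312002-114362173 (GRCh37, minus strand, ENSG00000106853.12). PTGR1 was at 238 and 258 FPKM in A549 controls and 33.5 and 38.3 FPKM with siRNA 28 and 30. In H2023 it was at 751 and 654 FPKM against 101 and 84.1 FPKM. H460 had 349.9 and 348 FPKM against 56.6 and 63.5 FPKM. The knockdown means were 14.5%, 13.2% and 17.2% of control, with the groups far apart. On the log2 scale the A549, H2023 and H460 changes were -2.75 ± 0.14, -2.91 ± 0.18 and -2.52 ± 0.21 (SE, adjusted p = 0.00286, 0.00805 and 0.00984 in limma). Ranked by fall, this placed PTGR1 25th of 13898 genes in A549, 30th of 14059 in H2023 and 47th of 13446 in H460. The call was lost without the first control library in H2023 and H460 (adjusted p = 0.0587 and 0.107 in limma) and without the second in H460 (adjusted p = 0.0729).

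PTGR2, which reduces 15-keto-prostaglandin E2, is at chr14:74318534-74352429 (GRCh37, plus strand, ENSG00000140043.7). It was at 13.7 and 14.9 FPKM in A549 controls against 13.7 and 15.3 FPKM with siRNA 28 and 30, and at 9.71 and 9.93 against 9.56 and 9.69 FPKM in H2023. In H460 the controls were at 6.59 and 6.54 FPKM and the knockdowns at 7.34 and 14.5 FPKM. The groups overlapped in A549 and lay within a narrow range in H2023, and in H460 the siRNA 30 library stood above both controls and siRNA 28. Log2 fold changes for A549, H2023 and H460 were 0.02 ± 0.14, -0.03 ± 0.19 and 0.59 ± 0.35 (SE, adjusted p = 0.974, 0.959 and 0.292 in limma). Without the siRNA 28 library the H460 value was 1.03 and passed as higher (adjusted p = 0.0340 in limma), and so did the average over lines, at 0.34 (adjusted p = 0.0206).

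EPHX1 fell on average, with the smallest change in H460, and EPHX2 did not pass. EPHX1 is the microsomal epoxide hydrolase, which turns epoxides of drugs and polycyclic hydrocarbons into diols, and is at chr1:225997826-226033264 (GRCh37, plus strand, ENSG00000143819.8). It was at 86.02 and 66.1 FPKM in A549 controls and 22.9 and 26.5 FPKM with siRNA 28 and 30. In H2023 it was at 439 and 363 FPKM against 133 and 82.8 FPKM. In H460 it was at 445 and 424 FPKM against 277 and 279.7 FPKM. The groups were separate in each line, and the knockdown means were 32.5%, 26.9% and 64.1% of control. The A549, H2023 and H460 log2 fold changes were -1.58 ± 0.18, -1.92 ± 0.26 and -0.64 ± 0.22 (SE, adjusted p = 0.0317, 0.0556 and 0.0987 in limma). The A549 call was lost without the first control library (adjusted p = 0.134 in limma), and the H2023 value passed without siRNA 28 or 30 (adjusted p = 0.000236 and 0.00273), with upper-quartile scaling (0.04905) and without mitochondrial transcripts (0.0409).

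EPHX2, the soluble epoxide hydrolase that acts on fatty acid epoxides, is at chr8:27348298-27403081 (GRCh37, plus strand, ENSG00000120915.9). It was at 10.8 and 12.3 FPKM in A549 controls against 11.99 and 13.3 FPKM, at 10.3 and 12.1 against 12.8 and 18.1 FPKM in H2023, and at 8.24 and 7.405 against 10.4 and 10.7 FPKM in H460. Both knockdown libraries were above both controls in H2023 and H460, by up to 1.38-fold on the means, and the A549 groups overlapped. On the log2 scale the A549, H2023 and H460 changes were 0.13 ± 0.15, 0.42 ± 0.24 and 0.39 ± 0.25 (SE, adjusted p = 0.767, 0.441 and 0.313 in limma). The average over lines lay just beyond the threshold and passed as higher without the H2023 siRNA 28 library, at 0.39 (adjusted p = 0.0220 in limma), and without mitochondrial transcripts, at 0.41 (adjusted p = 0.0317).

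PIR, which encodes the iron-binding protein pirin, is at chrX:15402921-15511687 (GRCh37, minus strand, ENSG00000087842.6). It was at 68.3 and 69.03 FPKM in A549 controls and 12.99 and 14.4 FPKM with siRNA 28 and 30. In H2023 it was at 33.3 and 33.6 FPKM against 7.33 and 13.5 FPKM. H460 had 41.4 and 43.7 FPKM against 18.3 and 23.3 FPKM. The controls of each line lay close together and above both knockdowns, and in H2023 less PIR remained with siRNA 28 than with siRNA 30. Log2 fold changes for A549, H2023 and H460 were -2.25 ± 0.13, -1.65 ± 0.30 and -1.01 ± 0.23 (SE, adjusted p = 0.00338, 0.0951 and 0.0388 in limma). The H2023 value passed without siRNA 28 or 30 (adjusted p = 0.00332 and 0.000555 in limma). The H460 value did not pass without the first or second control library (adjusted p = 0.246 and 0.233), nor with the scaling by upper quartile or without mitochondrial transcripts (adjusted p = 0.0541 and 0.0718).

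Relatives within a family differed in their change in 5 of 6 pairs. Apart from NQO1 against NQO2, each of the 5 set a gene that fell on average beside one that did not pass. No share over other gene pairs was computed, and the pairs among CBR1, CBR3 and CBR4 share genes. The log2 fold change of one gene minus that of the other was averaged over the lines and tested with an exact permutation test, two-sided, with the labels permuted within each line. Of 216 arrangements the smallest possible p was 0.00926, and p-values were adjusted over the 6 pairs. PTGR1 changed by -2.92 relative to PTGR2, EPHX1 by -1.69 relative to EPHX2 and CBR1 by -1.39 relative to CBR4 (adjusted p = 0.0185 each in the exact permutation test). CBR3 changed by -1.59 relative to CBR4 and NQO1 by -1.36 relative to NQO2 (adjusted p = 0.0222 each in the exact permutation test). The sign of the mean of both siRNAs was the same in all 3 lines for these 5 pairs. In H460 it rested on siRNA 28 for 2 of them, since NQO1 against NQO2 was -1.45 with siRNA 28 and 0.069 with siRNA 30, and CBR3 against CBR4 was -2.24 and 0.22. With both siRNAs, for NQO1 against NQO2 the difference was -1.3996 for A549, -1.98 for H2023 and -0.69 for H460. For CBR1 against CBR3 the mean difference was 0.20, with 0.10 for A549, 0.53 for H2023 and -0.03 for H460 (adjusted p = 0.389 in the exact permutation test). That value depended on the addition of 1 FPKM, which shrinks the change of the scarcer CBR3, and with 0.1 FPKM added it was 0.54 (adjusted p = 0.111 in the exact permutation test).

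**Figure D3:**
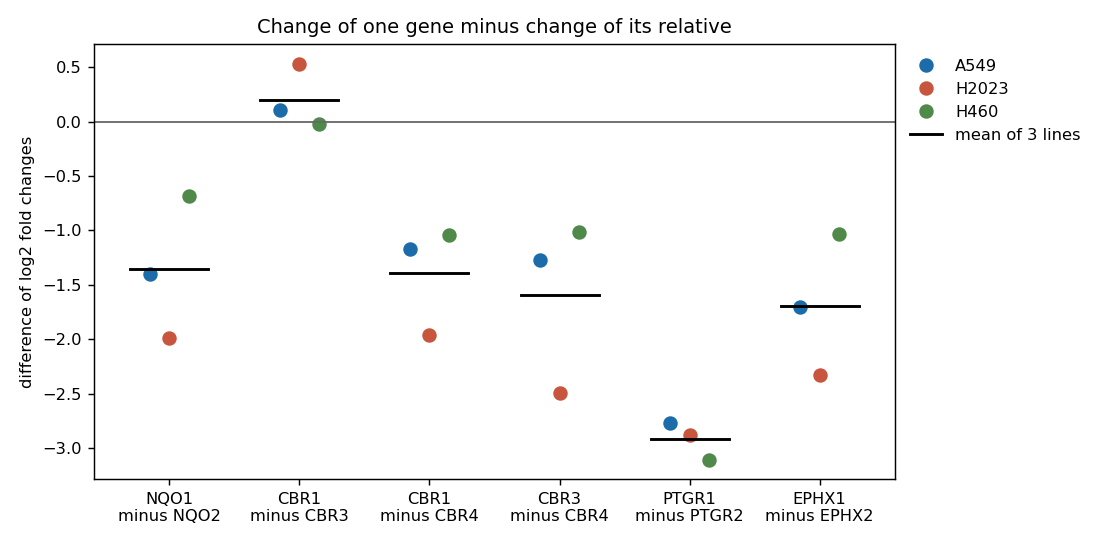
Difference between the log2 fold changes of 2 related genes (FPKM + 1 scale) in each line (circles) and as the mean of the 3 lines (black bars). The 5 pairs apart from CBR1 and CBR3 lie below 0 in each line, from -0.69 to -3.11.

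Whether the change itself differed between lines was tested for each gene with an F test in limma on all 12 libraries. Of the 10 genes 0 passed, where 2.51% of all genes did, and 4 had an unadjusted p under 0.05, namely EPHX1, PIR, NQO1 and CBR1, against 21.2% of all genes. Their adjusted p in limma was 0.0914, 0.121, 0.153 and 0.164. EPHX1 changed by 1.28 ± 0.32 less on the log2 scale in H460 than in H2023, NQO1 by 1.201 ± 0.357 less, and PIR by 1.24 ± 0.33 less in H460 than in A549 (SE). Leaving out the H2023 siRNA 28 library brought EPHX1 and PIR past the threshold (adjusted p = 0.0285 and 0.0296 in limma). Leaving out the H2023 siRNA 30 library did so for PIR (adjusted p = 0.0464), and leaving out the H460 siRNA 28 library did so for NQO1 and PTGR2 (adjusted p = 0.0266 and 0.0437). The number of all genes past the threshold moved too, from 290 with all libraries to 628, 194 and 770 in these 3 fits.

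The 2 siRNAs were then set against each other. With the line as a covariate in the 6 knockdown libraries, 0 of the 10 genes and 0% of all 15716 genes tested differed between siRNA 28 and siRNA 30 at an adjusted p under 0.05 in limma, and 1 of the 10, CBR4, had an unadjusted p under 0.05, against 18.2% of all genes. The log2 difference of siRNA 28 over siRNA 30 was 0.80 for CBR4, with a 95% interval of 0.08 to 1.53. It was -0.03 for PTGR1 (-0.38 to 0.33), -0.34 for NQO1 (-0.86 to 0.17) and -0.42 for PIR (-0.87 to 0.02).

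**Figure D4:**
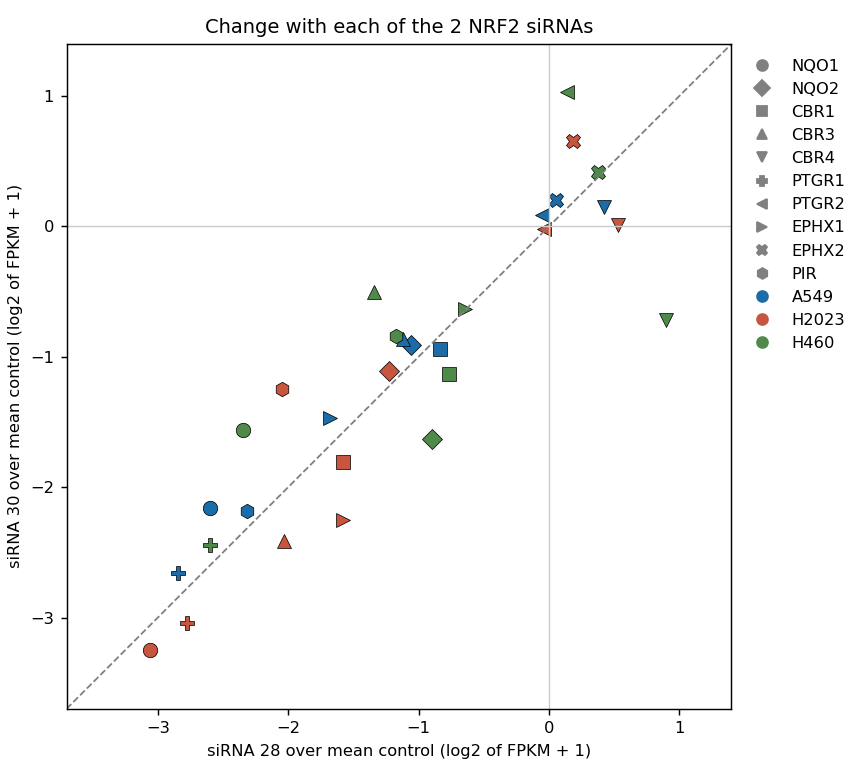
Log2 change of FPKM + 1 over the mean of the 2 controls of the line with NRF2 siRNA 28 (horizontal) and siRNA 30 (vertical), 1 symbol shape per gene and 1 colour per line, with the dashed line marking equal change. The largest gap from the dashed line is CBR4 in H460, at 0.90 with siRNA 28 and -0.72 with siRNA 30.

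Genes whose pattern was most like that of NQO1 were found by Pearson's correlation of log2(FPKM + 1), centred on the mean of each line, over the 12 libraries and 11570 genes. The 5 highest were CYP4F11 (r = 0.989), a fatty acid omega-hydroxylase, CLIP1 (0.984), PTGR1 (0.983), ENSG00000267056 (0.983) and NR0B1 (0.982). These points share libraries and the contrast itself. Among the other genes the correlation was 0.955 for EPHX1, 0.947 for CBR1, 0.933 for PIR, 0.925 for CBR3 and 0.896 for NQO2. It was -0.19 for PTGR2, -0.41 for CBR4 and -0.76 for EPHX2.

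Other reductases of the same chemistry were set beside these genes. Of 25 related reductases tested in A549, 24 in H2023 and 23 in H460, 0, 1 and 2 passed as lower and 0, 0 and 3 as higher, and the median log2 fold change was 0.12, 0.04 and 0.11, beside 0.02, 0.02 and -0.01 over all genes. The shares of all genes were 0.554%, 0.583% and 6.86% lower and 0.122%, 0.327% and 7.12% higher. The related reductases with the largest average change among those that passed in at least 1 line were AIFM2, BLVRB, AKR1B1 and TP53I3. AIFM2, which reduces coenzyme Q, was at 29.5 and 28.2 FPKM in H460 controls against 9.12 and 8.16 FPKM and passed there (log2 fold change -1.63, adjusted p = 0.0178 in limma). BLVRB, biliverdin reductase B, passed in H2023 (log2 fold change -1.62, adjusted p = 0.0336) and AKR1B1, an aldose reductase, in H460 (log2 fold change -1.14, adjusted p = 0.0243). TP53I3, a quinone oxidoreductase induced by p53, was higher in H460 (log2 fold change 1.37, adjusted p = 0.0313).

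Of 25 known NRF2 targets outside the family, 21 passed as lower in A549, 16 in H2023 and 23 in H460, and 0 passed as higher, against 0.554%, 0.583% and 6.86% of all genes lower and 0.122%, 0.327% and 7.12% higher. Genes lower in all 3 lines included GCLM, GCLC, TXNRD1, SRXN1, OSGIN1, AKR1C1, AKR1C2, PGD, TALDO1, ME1, GSR, UGDH and TXN. Many of them serve glutathione and thioredoxin reduction, NADPH supply or aldo-keto reduction, and UGDH makes UDP-glucuronate. The largest average falls were -4.74 for AKR1B10, -4.09 for OSGIN1, -3.61 for FTL and -3.29 for GCLM, all beyond the -2.73 of PTGR1. Many of these targets are listed because they are known to depend on NRF2, so their direction is no independent evidence.

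The shares of all genes that passed as lower were again 0.554% in the A549 fit, 0.583% for H2023 and 6.86% for H460. Of the eicosanoid enzymes, 0 of 8 tested passed in A549, 0 of 10 in H2023 and 1 of 9 in H460, where PTGES3, the cytosolic prostaglandin E synthase, was lower (log2 fold change -1.35, adjusted p = 0.0215 in limma). Of a list of other enzymes linked to epoxides, 2 of 5 tested genes passed as lower in A549, 2 of 5 in H2023 and 2 of 3 in H460. These were CYP4F3 and CYP4F11 in each line, which are not epoxide hydrolases. The epoxide hydrolase genes EPHX3 and EPHX4 lay under the filter in each line and were not tested. CYP4F11 was at 41.7 and 45.5 FPKM in A549 controls and 4.61 and 4.52 FPKM with siRNA 28 and 30. CYP4F3 and CYP4F11 are close paralogs, so reads may be shared between them. The aryl hydrocarbon receptor AHR, which also drives NQO1, did not pass in any line, with log2 fold changes of 0.11, -0.30 and 0.17 (adjusted p = 0.771, 0.425 and 0.831). KEAP1 had both knockdown libraries below both controls in each line and log2 fold changes of -0.65, -1.27 and -1.62 (adjusted p = 0.145, 0.0622 and 0.0158 in limma), with an average of -1.18 ± 0.09 (SE, adjusted p = 2.77e-05).

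Among the epithelial markers CDH1, the gene of E-cadherin, passed as higher in H2023, from 12.6 and 8.05 FPKM to 64.99 and 58.3 FPKM (adjusted p = 0.02803 in limma). It lay under the filter in H460 and was not tested there or on average. Of the other 5 epithelial markers 0 passed in any single line. On average over the lines KRT8, KRT18 and KRT7 of the 5 tested passed as higher, against 15.2% of all genes, with log2 fold changes of 0.78, 0.60 and 0.51 (adjusted p = 0.00638, 0.00556 and 0.0134 in limma), and the markers tested had medians of 0.14, 0.99 and 0.59 for A549, H2023 and H460. Their part in the values above was not tested.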

How the data were processed

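RNA was sequenced from 12 libraries of 3 lines, and each library came with a table of FPKM that the authors had scaled to transcript length and library size. The study's methods name TopHat and Cufflinks on hg19, whereas the submitters' processing notes name STAR 2.5.3a, Cuffnorm, HTSeq and hg19 or GRCh37.p13, so the aligner behind the FPKM values is uncertain. The authors' DESeq2 tables hold their own fold changes and p-values and were not used.

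Gene symbols were matched to 96.05% of the identifiers without their version, with the GENCODE annotation lifted to GRCh37. A total of 12710 values under 1e-06 FPKM were set to 0, and no libraries were identical. Within each line, genes at 1 FPKM or above in at least 2 of the 4 libraries were tested with limma 3.58.1 (R 4.3.3) on log2(FPKM + 1), a scale that understates changes of low genes. The prior variance followed mean expression, and p-values were adjusted by Benjamini-Hochberg over all genes tested, two-sided, with a threshold of 0.05. The average and the difference between lines were tested in 1 fit of the 12 libraries with 6 group means, on genes at 1 FPKM or above in 2 libraries of each line. Pairs of relatives were compared with exact permutation tests. The scripts were tested on simulated data. Whether the libraries of an NRF2 siRNA group came from separate cultures is given only through their different siRNAs, and p-values measure the spread between these libraries.

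The 10 genes, the gene lists and the tests were chosen with earlier results of these data known. Named genes were the 10, NFE2L2 and KEAP1, and the 5 genes most correlated with NQO1. By rule each list gave the genes passing in all 3 lines. With them came at most 4 with the largest average change among those passing in 1 line or more. AHR, cell type markers and genes that overlap the 10 were named outside this rule. ZADH2, DHRS11 and PECAM1 were not matched. A gene of the NRF2 target list that this rule names is counted with its list but not reported here by name. Sites were read from the GRCh37 genome. Alternatives were other pseudocounts, filters, scalings and variance priors, a joint fit, a replicate block, and leaving out each library. Tables and plots were made with pandas 2.3.3, numpy 2.4.6 and matplotlib 3.10.9 under Python 3.11.15.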

Additional observations from a re-analysis of the deposited data

How the results depend on the processing

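The 7 genes that fell on average kept a negative log2 fold change in all 392 alternative values. Filters, variance priors, weights per line, the joint fit and the replicate block cannot alter a fold change, so only other settings could move it. All 7 passed on average with a pseudocount of 0.1, a weight per line, the replicate block, no filter, and without mitochondrial transcripts. Of all genes 1650, 1676, 1760, 1469 and 1120 were then lower on average, in that order. Scaling by upper quartile and no trend in the prior variance were not run for the average. The per-line calls were less stable. With no filter on low values 0 of the 10 genes passed as lower in the A549 fit, 0 in that of H2023 and 0 in that of H460, as did 0 of all genes, and with no trend in the prior variance 3 passed in H2023, with 56 of all genes lower in place of 82. Leaving out 1 library gave 2 to 5 genes in A549, 0 to 7 in H2023, 0 to 5 in H460, and 0 to 2 genes that differed between lines. Over all genes the same fits gave 24 to 193, 0 to 801, 0 to 1748 and 3 to 770. Without mitochondrial transcripts the PTGR2 log2 fold change in H2023 was 0.054. Leaving out 1 library took PTGR2 in A549 from -0.0529 to 0.0888, CBR4 in H460 from -0.72 to 0.90 and the CBR4 average from -0.0535 to 0.48. The cause was not tested.

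Differences between relatives cannot pass without 1 of the lines, since the smallest two-sided p of the exact permutation test is then 0.0556. Without A549 they were -1.34 for NQO1 against NQO2, -1.50 for CBR1 against CBR4, -1.75 for CBR3 against CBR4, -3.00 for PTGR1 against PTGR2 and -1.68 for EPHX1 against EPHX2. Without H2023 they were -1.04, -1.11, -1.14, -2.94 and -1.37 in that order, and without H460 -1.69, -1.57, -1.89, -2.83 and -2.02.

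The replicate numbers do not mark paired samples in the labels, and deviations of same-numbered libraries correlated by -0.03 for A549, 0.31 for H2023 and 0.16 for H460. With the number as a replicate block, 3 genes passed as lower in A549, 7 in H2023, 6 in H460 and 7 on average, 0 differed between lines, and EPHX2 passed as higher on average (adjusted p = 0.0461 in limma). The block took EPHX1 past the threshold in H2023 and out of the calls in A549, and added PIR in H2023 and CBR1 and CBR3 in H460. Of all genes 65, 298, 1530 and 1760 then passed as lower, in the same order, and 76 differed between lines. In the joint fit of 12 libraries the counts per line were 4, 7 and 5, against 102, 305 and 2256 of all genes.

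With 2 libraries per group, a missed call does not show that a gene was unaffected, and unknown read depth limits CBR3, CBR4, PTGR2 and EPHX2, which lie near 1 to 18 FPKM.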
